A study of Mus musculus with 60 samples.

Results

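Gene expression in the distal mandible of the mouse embryo was compared between E13.5 and E14.5, which stand for embryonic days in the labels, over all genes, with 3 arrays at each age. The 6 arrays are those titled distal mandible at these ages, out of 60 arrays that cover the proximal and distal mandible and maxilla from E10.5 to E14.5. All embryos were C57Bl/6, with no mutation or treatment named, and both groups carry batch 1 in their titles. The tissue is labelled distal bone, and 3 µg of total RNA was used for each array. Nothing in the labels ties an array to an embryo, a pool or a litter. The p-values below therefore measure the spread between arrays of the same group, which may be technical. That spread was estimated over the groups of all 60 arrays, not from the 6 compared arrays alone. The series profiles gene expression through the development of both jaws, and this comparison covers its last interval in the distal mandible. Proximal mandible (batch 1) and distal maxilla (batch 2), from the same strain and with 3 arrays at each of the same ages, are used to show where the distal mandible differs.

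The distal mandible is the front of the lower jaw. It holds the incisor tooth germs, the front of Meckel's cartilage and of the dentary bone, muscle, and the skin and oral lining that cover them. At these stages bone forms directly in the mesenchyme beside Meckel's cartilage, myoblasts fuse into fibres, and the surface epithelium stratifies and begins to make the keratins of its upper layers. Mast cells and macrophages settle in connective tissue before birth, and primitive red cells with embryonic haemoglobin give way to definitive ones.

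Values are log2 expression values, so a difference of 1 is a 2-fold change. A gene is called where limma's moderated test gives a Benjamini-Hochberg adjusted p under 0.05 over 18193 genes. Between the ages 3093 genes (17.0%) were called, of which 1675 (9.21%) were higher and 1418 (7.79%) were lower at E14.5. Large changes were mostly increases: among called genes 275 were at least 2-fold higher and 20 at least 2-fold lower, and 61 were at least 4-fold higher against 3 lower. The Y-linked genes Eif2s3y, Kdm5d and Uty are among the 20, and 2 of them among the 3. Xist is among the 275 and the 61. Without sex-linked transcripts 274 genes were at least 2-fold higher and 17 lower, and 60 were at least 4-fold higher and 1 lower. The median change was 0.49 among genes that rose and -0.27 among genes that fell, beside -0.03 over all genes. In 2947 genes (16.2%) all 3 E14.5 arrays lay above all 3 E13.5 arrays, and in 3898 genes (21.4%) all lay below. The split of small changes depends on scaling, since centring each array on its median gave 1500 higher and 1919 lower calls, a fall in the share of higher calls from 54.2% to 43.9%.

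Array medians over the series lay between 6.05 and 6.31. A group mean at or below 4.78, the highest lower quartile of any array, is called dim, and a fold against a dim group is a lower bound, computed against that limit. Hand2, a transcription factor of the distal mandibular arch, read 12.01 to 12.83 on the 6 arrays against 8.36 to 9.58 in proximal mandible and 6.38 to 7.30 in distal maxilla, so it was highest where the label says distal mandible. Ibsp, the bone sialoprotein, read 12.77 to 13.36, among the brightest values of these arrays, so this bone gene was high at both ages. Sex-linked transcripts stood apart on 2 of the 6 arrays: Xist read 6.37 on E13.5 array 1 against 12.37 to 13.24 on the others, and the Y-linked Kdm5d read 3.19 on E14.5 array 2 against 7.88 to 9.32 on the others. Leaving out both, an alternative chosen after seeing the data, gave 2093 calls, 1347 higher and 746 lower.

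The largest increase was that of Mmp13, the collagenase that bone-forming cells and hypertrophic cartilage cells secrete to clear matrix. It read 4.18, 3.89 and 3.75 at E13.5 and 10.91, 9.55 and 11.19 at E14.5. All E13.5 arrays were dim and all E14.5 arrays bright, and the E14.5 mean was at least 54.5-fold higher (difference 6.61 ± 0.22, standard error, adjusted p = 1.58e-28 with limma). In such whole tissue, a change in the number of cells of a type and a change in RNA per cell cannot be told apart. Mmp13 also rose in proximal mandible, by 5.81, and in distal maxilla, by 3.81, and its rise in distal mandible exceeded that in distal maxilla by 2.80 ± 0.32. Because it leads the comparison, the 250 bases before its annotated start are printed (chr9:7272264-7272513 on the plus strand, RefSeq, GRCm38.p6). Capitals mark matches to 2 motifs searched on both strands: the RUNX core TGTGGT, here as its reverse complement ACCACA, and the TATA box TATAAA.
Mmp13: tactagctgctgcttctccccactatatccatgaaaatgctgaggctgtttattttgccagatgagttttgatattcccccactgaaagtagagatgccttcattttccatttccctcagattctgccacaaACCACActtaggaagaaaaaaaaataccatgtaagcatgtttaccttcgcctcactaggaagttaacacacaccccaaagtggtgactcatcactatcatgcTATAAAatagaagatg
The RUNX core starts 118 bases and the TATA box 16 bases before the annotated start. Of 32851 promoters of 300 bases in the same RefSeq table, 16.8% hold that RUNX core and 13.6% that TATA box on either strand, so such matches are common and say nothing of binding.

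Most of the other leading genes belong to the stratifying surface epithelium. Of 19 measured genes of stratifying and cornifying epithelium 16 rose and 0 fell, beside 9.21% of all genes that rose, with a median change of 2.68. The list level, the mean log2 value over its members, was 6.68 to 6.87 on the E13.5 arrays and 9.05 to 9.39 on the E14.5 arrays. All 16 called members rose at least 2-fold, and 16 were called whichever single array was left out.

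The keratins of the layers above the basal one rose in both the skin and the oral set. Krt10, the acidic keratin of the first suprabasal layer, read 10.49, 10.25 and 9.99 at E13.5 and 13.68, 13.60 and 13.503 at E14.5, a 10.2-fold rise (3.35 ± 0.10, adjusted p = 2.1e-30 with limma). Its partner Krt1 read 8.36, 8.38 and 8.11 at E13.5 and 12.28, 12.29 and 12.14 at E14.5, a 15.5-fold rise. Krt77, a further suprabasal keratin, rose 15.04-fold, with 5.37 to 5.58 on the E13.5 arrays and 9.07 to 9.57 on the E14.5 arrays. Krt4 and Krt13 pair in the lining of the mouth and other internal stratified epithelia. Krt4 read 7.72, 6.48 and 7.30 at E13.5 and 10.63, 10.47 and 10.45 at E14.5, and Krt13 read 5.92, 5.77 and 5.77 at E13.5 and 9.91, 9.25 and 9.31 at E14.5. No E14.5 array of these 5 keratins overlapped the E13.5 arrays, and their folds lay between 10.2 and 15.5. Krt6a, a keratin of the tongue and of wounded skin, rose by 1.53.

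Junction and barrier genes rose with the keratins. Dsc1, a desmosomal cadherin of upper layers, read 4.17, 4.07 and 4.17 at E13.5 and 9.46, 9.22 and 8.88 at E14.5, so that a dim gene became bright, at least 21.2-fold higher (5.05 ± 0.17). Dmkn, the secreted epidermal protein dermokine, read 7.63, 7.40 and 6.84 at E13.5 and 12.21, 12.03 and 12.01 at E14.5, a 27.7-fold rise. Krtdap, a keratinocyte differentiation protein, rose 12.46-fold and Dsg1a, a desmosomal cadherin, 3.62-fold. Lgals7, a galectin of stratified epithelia, rose by 2.05, Calml3, an epithelial calmodulin-like protein, by 1.90 and Sbsn, suprabasin, by 1.54. Of genes outside the list, Sdr16c6, a short-chain dehydrogenase, was at least 13.8-fold higher, Lipm, an epidermal lipase, at least 5.79-fold higher, and Idi2, an isopentenyl diphosphate isomerase, 10.4-fold higher. A second probe set of Dsc1 rose by 1.05 only.

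Genes of the cornified envelope, the protein shell of the dead outer cells, were split. The small proline-rich proteins rose, Sprr1a by 2.87, Sprr3 by 2.68 and Sprr1b from 3.40, 3.53 and 3.35 to 7.25, 6.74 and 7.05, at least 4.70-fold. Lor, loricrin, rose by 1.09, with 6.81 to 6.88 on the E13.5 arrays and 7.82 to 8.02 on the E14.5 arrays. Ivl, involucrin, differed by 0.29 (adjusted p = 0.154) and Tgm3, a transglutaminase, by 0.25 (adjusted p = 0.165). Flg, filaggrin, was dim on all 6 arrays, and these 3 are the members that were not called.

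Several genes of this list share a TATA box close to the start. The 50 bases before the annotated start (RefSeq, GRCm38.p6) are shown for the 6 called members that have TATAAA, in capitals, in that stretch:
Krt10: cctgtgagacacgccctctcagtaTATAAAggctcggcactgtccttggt
Krtdap: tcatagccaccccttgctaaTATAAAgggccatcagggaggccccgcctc
Sprr1a: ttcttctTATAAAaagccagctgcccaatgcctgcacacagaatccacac
Sprr1b: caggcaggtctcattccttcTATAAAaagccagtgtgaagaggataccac
Sprr3: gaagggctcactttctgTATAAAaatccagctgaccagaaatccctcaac
Lor: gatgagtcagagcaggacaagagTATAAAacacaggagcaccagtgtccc
These stretches are, in the same order, chr11:99389365-99389414 on the minus strand, chr7:30787855-30787904 on the plus strand, chr3:92485882-92485931 on the minus strand, chr3:92438780-92438829 on the minus strand, chr3:92458721-92458770 on the minus strand and chr3:92083143-92083192 on the minus strand. The box starts 26, 30, 43, 30, 33 and 27 bases before the start. Of the 16 called members 10 matched a promoter in the table, and 6 of their 11 promoters (54.5%) hold TATAAA on either strand, against 13.6% of all promoters, while 1 holds the RUNX core. Among promoters of called skeletal muscle genes 6 of 24 hold TATAAA, and among those of called macrophage genes 1 of 13. These shares describe letters and no test was made of them.

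**Figure D1:**
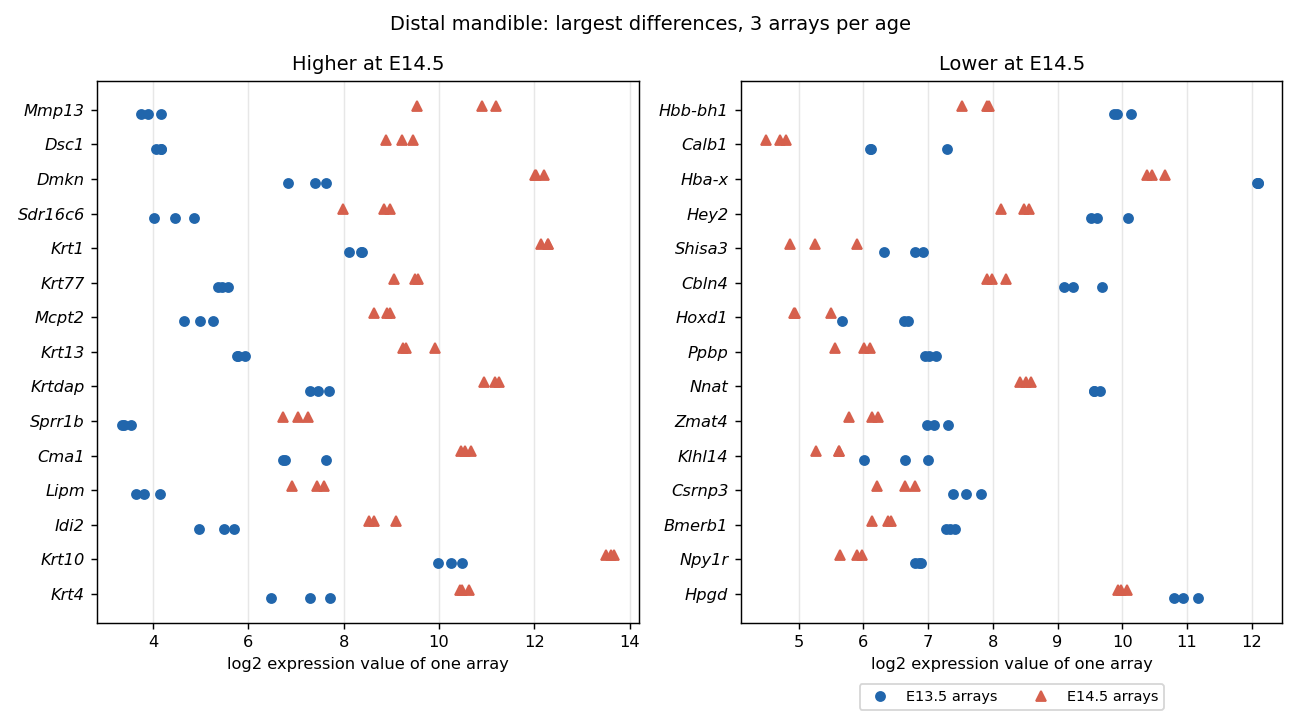
Log2 value of each array (x axis) for the 15 called rises and the 15 called falls of largest size in distal mandible, 3 arrays per age, among genes with a higher-group mean of at least 6 and no overlap between the ages, and without sex-linked transcripts and predicted models. The differences of the rising genes run up to 6.61 for Mmp13, and those of the falling genes shown run to -2.19 for Hbb-bh1.

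General epithelial genes changed less. Of 18 measured markers of surface epithelium 10 rose and 2 fell, beside 9.21% and 7.79% of all genes, with a median change of 0.48. Krt19, a keratin of simple and oral epithelia, rose by 1.27, Krt15, a basal keratin, by 1.09, Perp, a desmosomal protein, by 1.01, Krt5, the basal-layer keratin, by 0.68 and Cdh1, E-cadherin, by 0.63. Trp63, the master factor of stratified epithelia, differed by 0.26 (adjusted p = 0.0738), Epcam by 0.17 and Krt14 by 0.47, and none of these was called. Cldn7, a tight junction protein, fell from 8.27, 8.36 and 8.28 to 7.73, 7.63 and 7.76, by 0.60, and Cldn6 fell by 0.46. Without E13.5 array 1, or without E14.5 array 3, 1 of the 2 claudins was called lower. The list level moved from 9.94 to 10.14 up to 10.41 to 10.62, and the part of the amount of epithelium in the rise of the cornifying genes was not tested.

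Skeletal muscle genes rose as a group. Of 30 measured members 26 rose and 0 fell, beside 9.21% of all genes that rose, with a median change of 1.38. Ckm, muscle creatine kinase, read 6.50, 6.01 and 6.26 at E13.5 and 8.65, 8.18 and 8.91 at E14.5, a 5.004-fold rise (2.32 ± 0.16). Fast-fibre troponins rose alike, Tnni2 by 1.99 and Tnnt3 by 1.97, as did Cav3, the muscle caveolin, by 1.99, and Neb, the thin-filament protein nebulin, by 1.86. Myh8, the perinatal myosin heavy chain, rose by 1.999, Myh3, the embryonic one, by 1.67 and Des, desmin, by 1.05. Myog, the factor of terminal muscle differentiation, read 10.19, 9.54 and 10.32 at E13.5 and 11.002, 10.98 and 10.98 at E14.5 and rose 1.96-fold. The factors of muscle precursors were not called: Pax7 differed by 0.48 (adjusted p = 0.118), Myf5 by 0.50 (adjusted p = 0.242) and Myod1 by 0.46 (adjusted p = 0.0528).

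The E13.5 arrays spread more in muscle than the E14.5 arrays did. The list level was 8.58, 8.08 and 8.86 at E13.5 and 9.84, 9.72 and 9.87 at E14.5. E13.5 array 2 was the lowest in Ckm, Myog and Cav3 as in the list as a whole, and the groups did not overlap. When single arrays were left out 25 to 27 members were called.

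Mast cell genes rose, led by granule genes. Of 12 measured markers 8 rose and 0 fell, beside 9.21% of all genes that rose, with a median change of 0.62. Cma1, the chymase of connective tissue mast cells, read 7.63, 6.72 and 6.76 at E13.5 and 10.55, 10.68 and 10.47 at E14.5, an 11.51-fold rise (3.52 ± 0.15). Cpa3, the mast cell carboxypeptidase, read 9.36, 8.74 and 8.79 at E13.5 and 11.85, 12.01 and 11.82 at E14.5. The other granule genes followed: Mcpt4, a further chymase, rose by 2.70, Hdc, which makes histamine, by 2.33 and Srgn, the granule proteoglycan serglycin, by 1.83. Mcpt2, a mast cell protease outside the list, read 5.25, 4.64 and 4.98 at E13.5 and 8.91, 8.96 and 8.64 at E14.5, a 14.7-fold rise. Kit, the receptor for stem cell factor, rose by 0.64 and Gata2, a transcription factor of the lineage, by 0.54, whereas the receptor genes Fcer1a, Ms4a2 and Mrgprb1 were dim on all 6 arrays. The protease genes are close copies of each other, and their probe sets may take up RNA of more than 1 of them.

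Mcpt4 and Cpa3, both granule proteases, also carry a TATA box close to the start, shown in capitals in the 50 bases before the start (GRCm38.p6, chr14:56062311-56062360 on the minus strand and chr3:20242182-20242231 on the minus strand):
Mcpt4: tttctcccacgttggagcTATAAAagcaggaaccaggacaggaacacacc
Cpa3: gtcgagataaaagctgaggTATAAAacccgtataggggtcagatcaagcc
Of 10 promoters of 7 called mast cell genes 3 hold TATAAA and 4 (40%) the RUNX core, against 13.6% and 16.8% of all promoters.

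Macrophage genes rose together by a smaller amount. Of 16 measured markers 15 rose, 0 of them 2-fold, beside 9.21% of all genes that rose, with a median change of 0.76. Csf1r, the receptor for the macrophage growth factor, read 10.28, 9.99 and 10.18 at E13.5 and 10.93, 10.94 and 11.10 at E14.5. Lyz2, lysozyme, rose by 0.97, F13a1, a coagulation factor subunit of tissue macrophages, by 0.87, and C1qa, a complement subunit, by 0.84. Cd68, a lysosomal marker, differed by 0.37 (adjusted p = 0.0575). The list level moved from 8.37 to 8.66 up to 9.12 to 9.35, without overlap.

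**Figure D2:**
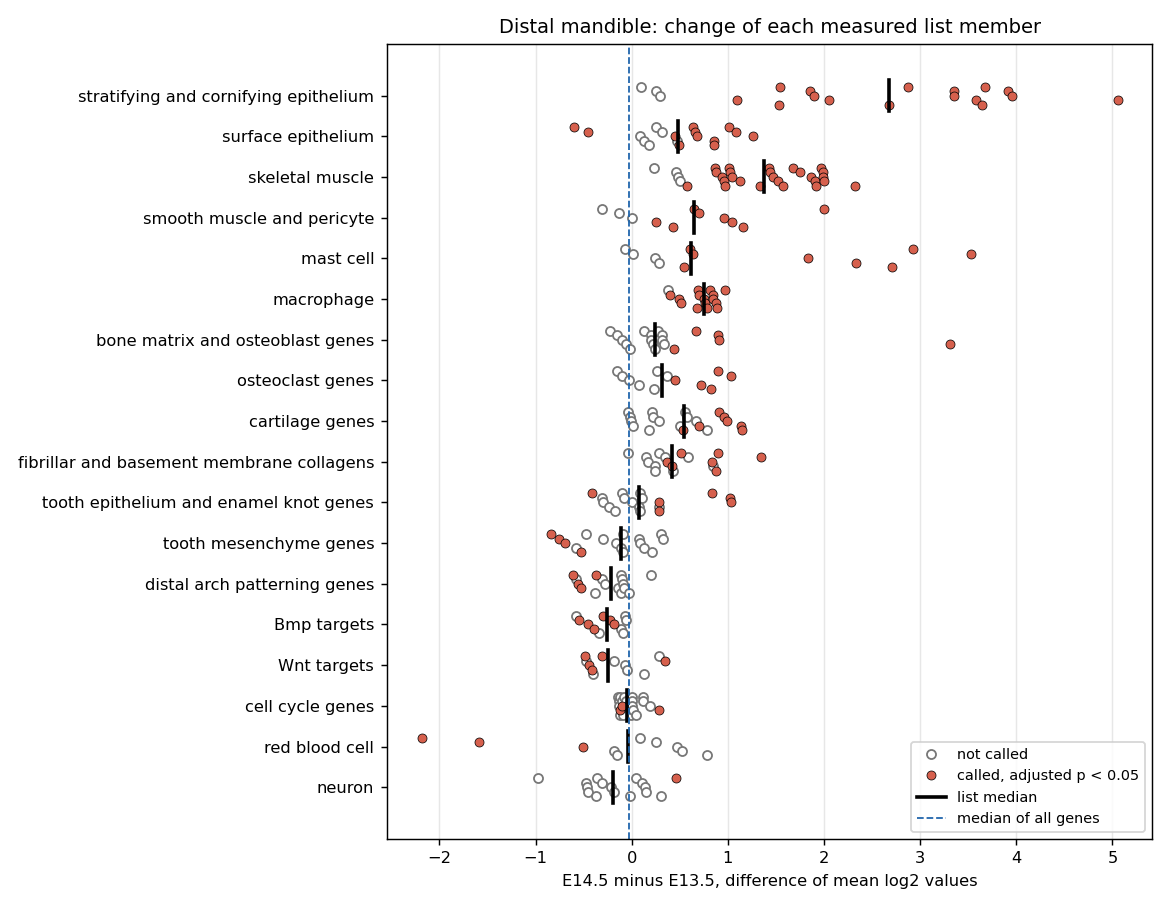
Change from E13.5 to E14.5 in distal mandible (log2 difference of mean values, 3 arrays per age) of the measured members of each gene list, with called members marked. The cornifying, skeletal muscle and macrophage lists lie to the right of the median of all genes (-0.03), with medians of 2.68, 1.38 and 0.76, and the Bmp targets lie to its left with a median of -0.26.

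Genes of pericytes and smooth muscle rose, while endothelial genes were called no more often than genes in general (17.0%). Of 11 measured genes of smooth muscle and pericytes 8 rose and 0 fell, with a list level of 7.60 to 7.92 at E13.5 and 8.38 to 8.41 at E14.5. Rgs5, a regulator of G-protein signalling in pericytes, read 7.47, 7.09 and 7.90 at E13.5 and 9.53, 9.54 and 9.39 at E14.5, a 4.004-fold rise. The potassium channel subunits Kcnj8 and Abcc9 rose by 1.16 and 1.04 and the proteoglycan Cspg4 by 0.70. The smooth muscle actins Acta2 and Actg2 rose by 0.65 and 0.96, and the other smooth muscle genes Tagln, Myh11 and Cnn1 were not called. Of 16 endothelial genes 0 rose and 2 fell, Sox18 by 0.21 and Emcn by 0.22. Leaving out single arrays moved these counts: 1 gene was called lower without E13.5 array 1, 2 or 3 or E14.5 array 3, and 0 without E14.5 array 2. Without E13.5 array 3, 1 endothelial gene was called higher, and without E14.5 array 2, 2 were.

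Embryonic haemoglobins fell. Hbb-bh1, an embryonic beta-like globin of primitive red cells, read 9.92, 10.14 and 9.87 at E13.5 and 7.94, 7.91 and 7.53 at E14.5, a change of -2.19 ± 0.10 (adjusted p = 4.5e-23 with limma), and its 2 other probe sets changed by -2.20 and -2.27. Hba-x, the embryonic alpha-like globin, read 12.09 on each E13.5 array and 10.39, 10.67 and 10.45 at E14.5, a change of -1.59, and Hbb-y, the other embryonic beta-like globin, changed by -0.51. The other 7 measured red cell genes were not called, although 3 of them were called higher in the fit of the 6 arrays alone and in that of batch 1. Among them Alas2, the first enzyme of haem synthesis in red cells, differed by 0.47 (adjusted p = 0.257 with limma) and Slc4a1, the band 3 membrane protein, by 0.25. Of the 7, 2 were dim at both ages, among them the adult globin Hba-a1 (means 4.26 and 4.35). The adult beta globins Hbb-bt and Hbb-bs were not measured, so the rise of adult globins could not be read here. The mean of Hbb-bh1 was 14.27 at E11.5 and 12.46 at E12.5 before the 9.98 of E13.5 and the 7.79 of E14.5, although the earlier ages carry other batch titles.

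The other large falls were in genes of varied roles. Hey2, a repressor in the Notch pathway, read 9.61, 10.09 and 9.52 at E13.5 and 8.47, 8.56 and 8.13 at E14.5 (-1.35 ± 0.27). Cbln4, a secreted synapse organiser, read 9.23, 9.68 and 9.10 at E13.5 and 7.99, 8.20 and 7.91 at E14.5, and Nnat, the imprinted gene neuronatin, read 9.57, 9.65 and 9.57 at E13.5 and 8.59, 8.51 and 8.42 at E14.5. All 3 fell without overlap between the ages. Shisa3 changed by -1.34, Ppbp, a platelet chemokine, by -1.14, Klhl14 by -1.05, Bmerb1 by -1.03 and Npy1r, a neuropeptide Y receptor, by -1.02. Hoxd1, a homeobox gene, changed by -1.21 and Hpgd, which breaks down prostaglandins, by -0.98. Both lost the call without the 2 arrays whose sex-linked signals stood apart (adjusted p = 0.0814 and 0.0525 with limma). Calb1, a calcium-binding protein, changed by -1.84 to a dim level on its highest probe set, while its 3 other probe sets differed by -0.09, -0.06 and 0.00 and were not called. Zmat4 (-1.08) and Csrnp3 (-1.05) each had 2 other probe sets that were not called.

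Some bone genes rose, while most were not called. Of 19 measured genes of bone matrix and osteoblasts 5 rose and 0 fell, beside 9.21% of all genes that rose. The median change was 0.24. In 10 of the 19 all E14.5 arrays lay above all E13.5 arrays and in 1 below, against 16.2% and 21.4% of all genes. Dmp1, a matrix protein of mineralising bone and osteocytes, read 6.87, 6.13 and 6.80 at E13.5 and 9.69, 8.96 and 11.08 at E14.5, a 9.90-fold rise (3.31 ± 0.25). Col1a1, the main collagen of bone, read 11.55, 11.10 and 11.43 at E13.5 and 12.13, 12.09 and 12.55 at E14.5 and rose by 0.90, as did Omd, osteomodulin, by 0.90, Fam20c, a kinase of secreted bone proteins, by 0.67 and Tnn, a tenascin, by 0.44. Sp7, the osteoblast factor osterix, differed by -0.02 (adjusted p = 0.965), Ibsp by 0.13 and Alpl, the phosphatase of mineralisation, by 0.27. E14.5 array 3 was the highest of the 6 in Dmp1, Ibsp, Alpl and Sp7. In the fit of the 6 arrays alone 9 members were called higher and 2 lower.

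Osteoclast genes rose in part. Of 12 measured members 5 rose and 0 fell, beside 9.21% of all genes that rose. Ctsk, the collagen-cleaving cathepsin K, rose from 10.12, 9.86 and 10.13 to 10.95, 10.77 and 11.08, by 0.89. Acp5, the acid phosphatase of osteoclasts, rose by 1.03, Atp6v0d2, a proton pump subunit, by 0.82, Mmp9, a gelatinase, by 0.72 and Itgb3, an integrin chain, by 0.45. Without E13.5 array 2, or without E14.5 array 3, 3 members were called.

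Cartilage genes rose unevenly. Of 20 measured members 7 rose and 0 fell, beside 9.21% of all genes that rose, with a median change of 0.54. Snorc, a cartilage proteoglycan, read 6.27, 5.97 and 6.23 at E13.5 and 6.64, 7.47 and 7.79 at E14.5, Matn3, a matrilin, rose by 1.14, Comp by 0.99, Epyc, a small proteoglycan, by 0.96, Acan, aggrecan, by 0.91, Col11a1 by 0.70 and Prg4, lubricin, by 0.53. Sox9, the master factor of cartilage, differed by 0.01, and Col2a1, its main collagen, by 0.57 (adjusted p = 0.068). The list level was 7.50, 7.83 and 8.27 at E14.5 against 7.25 to 7.41 at E13.5, and 4 members were called without E14.5 array 3 or when batch 1 alone was fitted. Of 11 hypertrophic cartilage genes 1 was called, Mmp13: Col10a1, the collagen of hypertrophic cells, read 4.92 to 5.09 and differed by 0.04.

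Collagens and connective tissue genes rose by moderate amounts. Of 17 measured fibrillar, associated and basement membrane collagens 7 rose and 0 fell, beside 9.21% of all genes that rose. In the fit of the 6 arrays alone 14 rose. Col14a1, a fibril-associated collagen, read 8.40, 8.17 and 8.16 at E13.5 and 9.70, 9.37 and 9.72 at E14.5. Col6a3 rose by 0.88, Col12a1 by 0.84, Col5a1 by 0.51 and the basement membrane chain Col4a1 by 0.42. Of 14 small leucine-rich proteoglycans 5 rose, among them Dcn, decorin (0.70), Fmod, fibromodulin (0.57) and Bgn, biglycan (0.52), and 3 were called without both arrays whose sex-linked signals stood apart. Of 11 tendon genes 5 rose and 1 fell, with Thbs2, a thrombospondin, at 1.10, Tnmd, tenomodulin, at 0.72 and Six2 at -0.60. Without E13.5 array 2, E14.5 array 1 or E14.5 array 3, 3 tendon genes were called higher, and Scx, the tendon factor scleraxis, was not called (-0.11).

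Tooth genes gave calls in opposite directions in epithelium and mesenchyme. Of 18 measured genes of tooth epithelium and enamel knot 5 rose and 1 fell. Shh, the signal of the dental epithelium, read 9.49, 9.71 and 9.55 at E13.5 and 10.68, 10.73 and 10.40 at E14.5, a 2.03-fold rise, and Sp6, an epithelial tooth factor, read 7.49, 7.38 and 7.39 at E13.5 and 8.60, 8.71 and 8.04 at E14.5. Cdkn1a, the cell cycle inhibitor found in enamel knots, rose by 0.83. Slit1 rose by 0.29, Fgf9 by 0.28 and Lef1, a Wnt effector, fell by 0.41. Without E13.5 array 1 or 2 or E14.5 array 1 or 2, 3 members were called higher, and Lef1 was not called without E13.5 array 1 or 2 or E14.5 array 1 or 3. Fgf4, of the enamel knot, and Ambn, which encodes an enamel protein, were not called (-0.08 and 0.09).

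Of 17 measured genes of tooth mesenchyme 0 rose and 4 fell, beside 7.79% of all genes that fell. In the fit of the 6 arrays alone, and in that of batch 1, 2 were called higher and 6 lower. Lhx8, a LIM homeobox gene of jaw and tooth mesenchyme, read 10.97, 11.11 and 10.997 at E13.5 and 10.28, 10.38 and 10.32 at E14.5 (-0.70 ± 0.07, adjusted p = 5.63e-11 with limma). Its relative Lhx6 fell by 0.76, Barx1, a homeobox gene of molar mesenchyme, by 0.84 and Bmp4, the mesenchymal tooth signal, by 0.53. Msx1 and Pax9, which tooth buds need, differed by -0.58 (adjusted p = 0.0675) and 0.22. Lhx8 changed more in distal mandible than in proximal mandible, by -0.53 ± 0.10 (adjusted p = 0.000723 with limma), and more than in distal maxilla, by -0.995 ± 0.10.

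Of 16 measured genes that pattern the distal arch 0 rose and 4 fell, beside 7.79% of all genes that fell. Prrx1, a mesenchymal homeobox gene, read 12.98, 13.04 and 13.09 at E13.5 and 12.67, 12.64 and 12.67 at E14.5, a small fall of 0.38 with tight replicates. Pitx1, a homeobox gene of the hind limb and lower jaw, fell by 0.61 and Hand2 by 0.56, and Bmp4 belongs here too. In the fit of the 6 arrays alone 8 members fell. Hand1, Msx2 and Edn1 were not called (-0.11, -0.09 and -0.03).

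Of 12 measured Bmp targets 0 rose and 6 fell, beside 7.79% of all genes that fell, with a median of -0.26. When single arrays were left out 4 to 5 fell. Without both arrays whose sex-linked signals stood apart 4 fell. Smad7 and Smad6, the inhibitory Smads, fell by 0.29 and 0.45, Id3 and Id1, the inhibitors of differentiation, by 0.23 and 0.18, Hey1 by 0.39 and Grem1, a Bmp antagonist, by 0.55. Of 12 Wnt targets 4 fell and 1 rose, beside 7.79% and 9.21% of all genes. Axin2, the feedback inhibitor of the pathway, read 9.70, 9.42 and 9.32 at E13.5 and 9.04, 8.99 and 8.95 at E14.5, Nkd1 fell by 0.44 and Lgr5 by 0.31, while Rnf43 rose by 0.35 but was not called when any 1 of the 6 arrays was left out. Without E13.5 array 2, 2 Wnt targets were called lower. Of 8 hedgehog targets Hhip rose by 0.90 and Ptch1, the receptor of Shh, by 0.41, while Gli1 differed by 0.14 (adjusted p = 0.16). The hedgehog median of 0.01 turned to -0.01 with centred arrays.

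The list counts of this paragraph stand beside 9.21% of all genes that rose and 7.79% that fell. Of 11 measured Fgf targets 2 rose, the immediate-early genes Fos and Egr1. Fos read 8.91, 8.85 and 8.88 at E13.5 and 10.08, 9.98 and 10.09 at E14.5, and Egr1 rose by 0.90. Etv4 and Dusp6 fell by 0.32 and 0.18, of which 1 was called without E13.5 array 3, E14.5 array 2 or E14.5 array 3, and 0 without any of the other 3 arrays. In the Notch pathway 7 of 16 rose, among them the receptors Notch1 (0.52) and Notch2 (0.45) and the target Heyl (0.60), and 2 fell, Hey2 and Hey1. Without E13.5 array 2 or array 3, 4 Notch genes were called higher. Of 14 retinoic acid genes 3 rose and 4 fell. Crabp2, a retinoic acid carrier, read 11.69, 11.71 and 11.72 at E13.5 and 11.05, 10.96 and 10.89 at E14.5, and Rbp4, the retinol carrier, rose by 0.75. Without E13.5 array 2, E14.5 array 1 or E14.5 array 3, 1 retinoic acid gene was called higher, and without E14.5 array 1 or 2, 2 were called lower. Of 18 hypoxia and glycolysis genes 6 rose, led by Ndrg1 (0.75), and 3 without E14.5 array 3.

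Proliferation genes were called no more often than genes in general, of which 17.0% were called. Of 24 measured cell cycle genes 1 rose and 2 fell, beside 9.21% and 7.79% of all genes, with a median of -0.05. Mki67, the proliferation marker Ki-67, read 11.52, 11.63 and 11.66 at E13.5 and 11.94, 11.84 and 11.88 at E14.5, and the replication helicase subunits Mcm4 and Mcm5 fell by 0.12 and 0.10. Of those last 2, 1 was called without E13.5 array 3 or E14.5 array 3 and 0 without any of the other 4 arrays, while 2 genes were called higher without E13.5 array 2 or 3 or E14.5 array 2. Of 10 cell cycle inhibitors Cdkn1a and Cdkn2c (0.42) rose, and 1 was called without any single array other than E14.5 array 3. Of 19 genes of fetal growth and timing 3 fell and 1 rose, beside 7.79% and 9.21% of all genes. Hmga2, a chromatin protein of early embryos, read 11.78, 11.84 and 11.81 at E13.5 and 10.96, 11.03 and 10.84 at E14.5 (-0.87 ± 0.07), and the RNA-binding proteins Igf2bp1 and Igf2bp3 fell by 0.24 and 0.22. Peg3, an imprinted gene, rose by 0.19 and was not called without E13.5 array 2 or E14.5 array 3.

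Nerve and gland markers were called higher no more often than all genes (9.21%), and glial (2 of 10) and pigment markers (4 of 7) more often. Of 16 measured neuronal genes 1 rose, Isl1 (0.46), which was not called without E13.5 array 1 or 3 or E14.5 array 1 or 2. In the fit of the 6 arrays alone 7 neuronal genes were called lower and 2 higher, and in that of batch 1, 5 and 1. Stmn2, a growth cone protein, read 10.52, 10.90 and 10.36 at E13.5 and 9.61, 9.81 and 9.45 at E14.5 and was not called (adjusted p = 0.0955). Of 10 Schwann cell and glial genes Erbb3, the neuregulin receptor, rose by 0.54 and S100b by 0.92. Of 7 pigment cell genes 4 were called higher. They were Dct (1.04), Tyr (0.88, at least 1.66-fold), Mitf (0.61) and Mlana, which was dim at both ages and so has no reliable difference. Without E13.5 array 3 or E14.5 array 3, 2 pigment genes were called, and without both arrays whose sex-linked signals stood apart 1 was. Of 11 salivary gland genes 1 rose, Kit, which is also a mast cell gene.

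In proximal mandible 9.10% of genes were called higher and 12.3% lower between the same ages. Of the 3093 distal calls, 1907 were called the same way in proximal mandible, which is 61.7% of the distal and 48.9% of the 3898 proximal calls, and of the 295 distal calls of at least 2-fold it was 235. The difference between the changes was called in 310 genes: 234 (1.29%) changed more in the positive direction distally and 76 (0.418%) less. It was called in 60 of the 295 genes. Without distal E14.5 array 1 it was called in 191 genes.

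Several genes of cornifying epithelium stood among those with the greater rise in distal mandible. Sprr3 read 6.48, 6.15 and 6.24 at E13.5 and 9.26, 8.84 and 8.81 at E14.5 distally and 5.46 to 6.00 over both ages proximally, a difference of the changes of 2.68 ± 0.19 (adjusted p = 6.92e-15 with limma). Krt6b, a keratin related to Krt6a, read 5.39, 5.82 and 5.38 at E13.5 and 8.24, 8.17 and 7.81 at E14.5 distally and was dim on all 6 proximal arrays, a difference of 2.44. Spink5, an inhibitor of epidermal proteases, was dim on the E13.5 arrays and on all proximal arrays and differed by 2.36. Idi2 rose by 3.37 distally, while both of its proximal means were dim, so that the difference of 2.86 rests on the distal rise. Over the cornifying list 4 of 19 members rose more distally and 1 less. The list medians were 2.68 and 2.18, but the median of the differences taken gene by gene was only 0.05. The surface epithelium list ran the other way: 0 of 18 members had the more positive change distally and 2 the less positive one. These were Krt19 (-0.62), which rose less distally, and Cldn7 (-0.61), which fell distally. The medians were 0.48 and 0.79, and 14 members were called higher proximally against 10 distally.

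Mast cell proteases differed among themselves. Mcpt2 rose by 3.88 distally against 1.36 proximally (2.52 ± 0.24), but its proximal E13.5 mean was dim, which understates the proximal rise. Mcpt4 rose by 2.70 against 1.26 (1.44 ± 0.20). For Cma1 the rises were 3.52 and 3.75, and their difference of -0.23 was not called (adjusted p = 0.815). The mast cell medians were 0.62 and 0.65.

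The remaining genes with the more positive change distally moved from different starting levels. Dlx1as, a non-coding RNA antisense to the homeobox gene Dlx1, read 7.23, 5.91 and 6.93 and then 8.92, 9.23 and 8.92 in distal mandible and 8.95, 9.51 and 9.23 and then 8.26, 8.42 and 8.23 in proximal mandible, so the order of the ends was turned between the ages (difference of the changes 3.26 ± 0.50). Igfbpl1, a secreted protein related to the insulin-like growth factor binding proteins, rose by 0.65 distally and changed by -2.13 proximally (difference 2.78). C1qtnf3, a secreted protein with a collagen-like stretch, read 5.36, 4.30 and 5.75 and then 7.11, 7.73 and 8.29 distally, below all proximal arrays (10.55 to 11.26), and its changes differed by 2.57. Its distal rise brought it nearer to the proximal level.

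Changes that were less positive distally included muscle and fat genes. Myl2, a myosin light chain of slow muscle and heart, read 4.04 to 4.65 on the distal arrays, all dim, and rose by 4.10 proximally (difference -3.69). Adipoq, the fat cell hormone adiponectin, read 3.60 to 3.84 distally, also dim, and 3.70, 3.77 and 3.76 and then 5.61, 7.42 and 7.15 proximally (difference -2.91). Myoz1 and Hspb7, both muscle proteins, rose by 1.62 and 1.89 proximally against 0.23 and 0.45, and Car3, a carbonic anhydrase of muscle and fat, by 1.83 against 0.32. Otor, otoraplin, fell by 0.87 distally and rose by 1.39 proximally (difference -2.26). Dkk4, a Wnt inhibitor of epithelial buds, changed by 0.28 against 1.63 (-1.35). Mlip, a muscle lamin-interacting protein, differed by -1.35, which was lost in the fit of the arrays compared (adjusted p = 0.0924 with limma).

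The muscle list as a whole started lower in distal mandible. Its level was 8.08 to 8.86 at E13.5 against 9.997 to 10.46 in proximal mandible, and 9.72 to 9.87 at E14.5 against 10.92 to 11.09. The medians of the changes were 1.38 and 0.65, and the difference was called in 1 of 30 members, Ckm (-0.95), which rose less distally. Bone genes were called higher in 13 of 19 members proximally against 5 distally, with a called difference for Ifitm5, a bone membrane protein (-1.10), and Sp7 (-0.82, adjusted p = 0.0458 with limma).

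**Figure D3:**
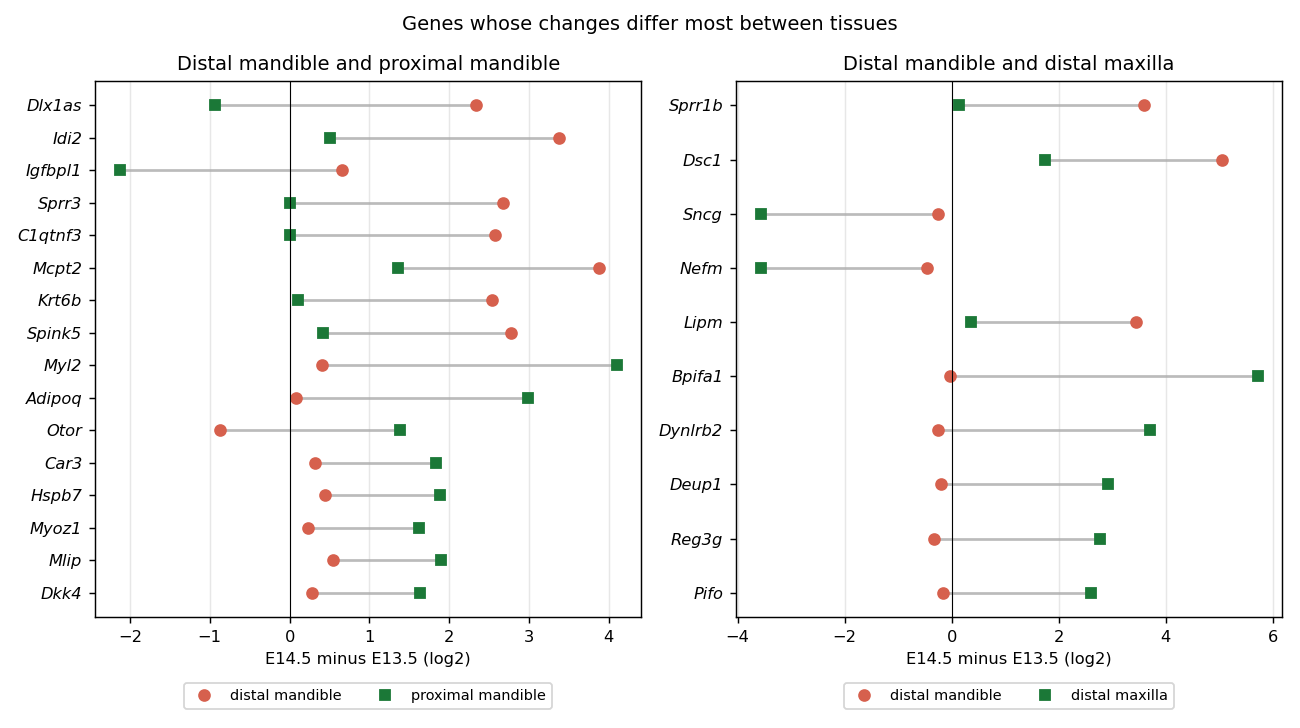
Change from E13.5 to E14.5 (log2 difference of means, 3 arrays per age) in distal mandible and in proximal mandible (16 genes) or distal maxilla (10 genes), for the named genes whose changes differ most (sex-linked transcripts and predicted models left out), with a line joining the paired values of each gene. Sprr3 changed by 2.68 distally and 0.00 proximally, and Bpifa1 by -0.04 in distal mandible and 5.71 in distal maxilla.

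In distal maxilla 9.49% of genes were called higher and 6.07% lower. Of the distal mandible calls 1208 were called the same way in distal maxilla, 39.1% of them and 42.7% of the 2832 maxilla calls, and of the 295 calls of at least 2-fold it was 145. The difference between the changes was called in 1057 genes, with the mandible change the more positive in 611 (3.36%) and the more negative in 446 (2.45%). With centred arrays the split was 593 and 678, and the share with the more positive change in mandible fell from 57.8% to 46.7%. Each change was measured within 1 titled batch, but the jaws lie in different ones, so a difference between batches in signal scale and a difference between jaws cannot be told apart.

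Cornifying and muscle genes rose more in the mandible. Of 19 cornifying genes 14 rose more in distal mandible and 0 less, with medians of 2.68 and 0.86. Sprr1b read 3.20 to 3.60 over both ages in maxilla, all dim, and differed by 3.44. Dsc1 rose by 5.05 against 1.74 in maxilla (3.31 ± 0.24), and Lipm rose by 3.44 while it was dim at both ages in maxilla. Of 30 muscle genes 24 rose more in mandible and 0 less. Their median in maxilla was -0.07, where the list level stood at 9.33 to 9.41 at both ages.

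Neuronal genes fell in maxilla, in 15 of 16 members. In 14 of the 16 the change was more positive in mandible. The medians were -0.20 in mandible and -1.77 in maxilla, so the fall was the smaller one in mandible. Nefm, a neurofilament subunit, read 11.69, 11.74 and 11.58 and then 8.14, 8.16 and 8.01 in maxilla and 9.08, 8.92 and 9.10 and then 8.64, 8.50 and 8.57 in distal mandible, where it was not called (difference of the changes 3.10 ± 0.36). Sncg, gamma-synuclein, changed by -3.56 in maxilla and by -0.26 in distal mandible (difference 3.31).

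The 5 genes that had the most negative differences between mandible and maxilla are known from airway or ciliated epithelium or are secreted by barrier epithelia. Bpifa1, a secreted airway protein, was dim on all 6 distal mandible arrays and read 5.31, 5.12 and 4.97 and then 10.77, 10.95 and 10.83 in maxilla (-5.75). Dynlrb2, Deup1 and Pifo, genes of ciliated cells, differed by -3.97, -3.13 and -2.78, and Reg3g, an antimicrobial lectin, by -3.09. None of the 5 was called in distal mandible. Bone genes also rose less in mandible, in 8 of 19 members with 0 that rose more. Ibsp read 11.79, 11.67 and 11.67 and then 13.36, 13.65 and 13.33 in maxilla, against 12.77 to 13.01 at E13.5 and 12.78 to 13.36 at E14.5 in distal mandible. The mandible arrays lay above the maxilla arrays at E13.5, across the titled batches.

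**Figure D4:**
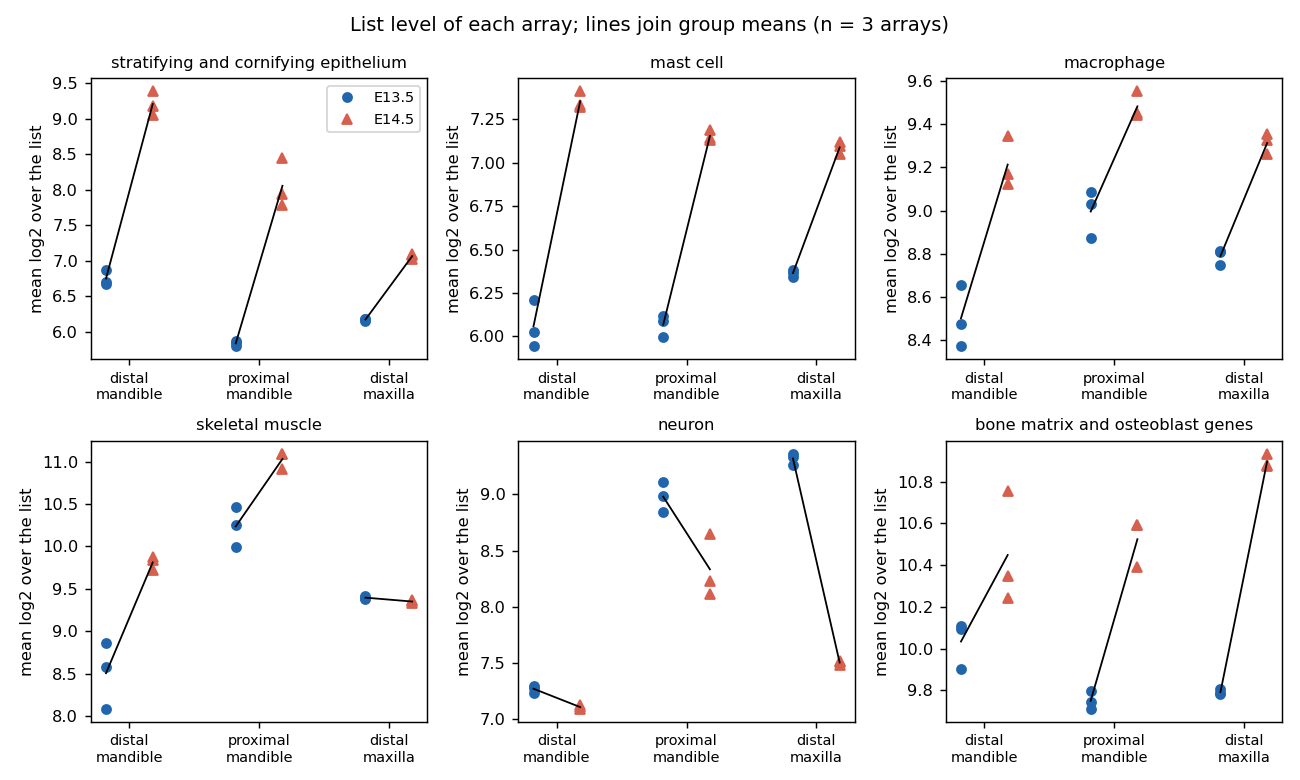
Mean log2 value over the measured members of a gene list (y axis) on each array of distal mandible, proximal mandible and distal maxilla at E13.5 and E14.5, with 3 arrays per group. The cornifying list climbs from 6.68 to 6.87 up to 9.05 to 9.39 in distal mandible, and the muscle list climbs in distal mandible while it stands at 9.33 to 9.41 in distal maxilla.

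Earlier ages show when each gene began to move in distal mandible. E10.5 and E11.5 were titled batch 3 and E12.5 batch 2, so age and batch cannot be told apart in the steps from E11.5 to E12.5 and from E12.5 to E13.5. Mmp13 averaged 3.15, 3.23 and 3.25 from E10.5 to E12.5 and 3.94 at E13.5 before it reached 10.55. Dsc1 stayed between 3.20 and 4.13 until E13.5, so both were dim at every earlier age. Krt10 stood at 8.68 at E10.5 and 10.24 at E13.5, and Cma1 had moved from 4.76 at E12.5 to 7.04 at E13.5. Dlx1as took a path of its own, from 8.59 at E10.5 to 5.91 at E11.5 and back to 9.02 at E14.5. Some genes that fell after E13.5 had been higher than at E10.5 since E11.5: Hey2 averaged 5.44 at E10.5, 10.11 at E12.5 and 8.39 at E14.5, and Cbln4 4.19, 9.14 and 8.03. Nnat, in contrast, averaged 11.01 at E10.5 and was lower at each later age.

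**Figure D5:**
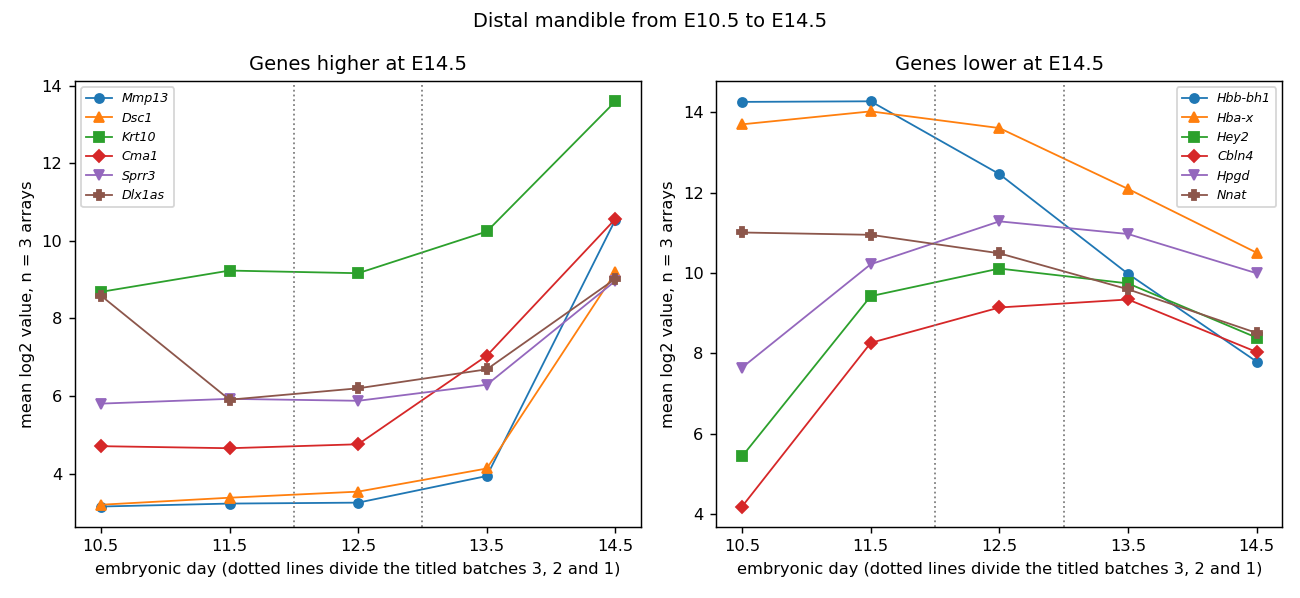
Mean log2 value (y axis, 3 arrays per age) of genes that rose and genes that fell from E13.5 to E14.5 in distal mandible, over ages from E10.5 to E14.5 (x axis); the titled batch changes before E12.5 and before E13.5. Mmp13 and Dsc1 stay dim until E13.5, Hbb-bh1 falls at each step from E11.5, and Hey2 and Cbln4 climb before they fall.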

How the data were processed

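RNA of 60 mouse embryo jaw pieces was measured on a 1-colour microarray after labelling as biotinylated cRNA, per the labels' protocols. The values are log2 signals of 45101 probe sets in the authors' deposited value table. They were made with RMA per the submitters' processing notes (version not given in the sources used here), a method that corrects background, brings arrays to a common distribution of probe signals and summarises probes. Such values understate differences of dim genes. Between any pair of the 6 distal mandible arrays at most 0.339% of values were equal. Control probe sets (64) and those with several symbols (932) or none (9160) in the platform annotation were left out, and 34741 of 34945 single-symbol probe sets matched RefSeq. Each of 18193 genes was read from 1 probe set, the one whose mean across the 60 arrays was highest, and 9010 genes had several to choose from.

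Groups came from the titles. All 20 group means were fitted with limma 3.58.1 in R 4.3.3 (lmFit, eBayes with trend, 40 residual degrees of freedom), and contrasts were tested two-sided with Benjamini-Hochberg adjustment over all genes. Tables and figures were made with Python 3.11.15, pandas 2.3.3 and matplotlib 3.10.9. The 33 gene lists hold 513 memberships, of which 479 were measured. Named genes were the 15 called genes per direction with the largest difference, the mean of the higher group at least 6 and all 9 differences between single arrays of the same sign, without predicted models, clones and sex-linked genes. For differences between tissues they were the 8 (proximal mandible) or 5 (distal maxilla) largest per direction. Within lists they were at most 5 called members, by smallest p, and defining members, and further list members were chosen after their values were seen. Members and lists were chosen with earlier results of these data known. On simulated data with 18193 genes the fit called 77 of 100 changes of 0.5 and 97 of 100 changes of 1 (log2), with 9 unchanged genes called. The simulated noise was independent between genes and equal in spread over all groups of a gene, which real arrays need not follow. Alternatives covered normalization, dim genes, probe sets, arrays in the fit, moderation, array weights, a replicate block, single arrays left out and a 2-fold limit. The number of arrays limits the precision.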

Additional observations from a re-analysis of the deposited data

Results flagged for a closer look

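The change from E13.5 to E14.5 differed between distal and proximal mandible in 310 genes, by limma's test of the difference of the changes. The distal change was the more positive in Dlx1as (3.26), Idi2 (2.86), Igfbpl1 (2.78), Sprr3 (2.68), C1qtnf3 (2.57), Mcpt2 (2.52), Krt6b (2.44) and Spink5 (2.36). The proximal change was the more positive in Myl2 (-3.69), Adipoq (-2.91), Otor (-2.26), Car3 (-1.51), Hspb7 (-1.44), Myoz1 (-1.39), Mlip (-1.35) and Dkk4 (-1.35). Values are distal minus proximal changes in log2 units, and each gene was called over all genes tested. Myl2 and Adipoq were dim on every distal array, so there the difference is the proximal rise.

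Between distal mandible and distal maxilla the change differed in 1057 genes by the same test. It was more positive in mandible in Sprr1b (3.44), Dsc1 (3.31), Sncg (3.31), Nefm (3.10) and Lipm (3.08). Of these, Sncg and Nefm changed less in mandible, with the larger fall in maxilla. It was more negative in mandible in Bpifa1 (-5.75), Dynlrb2 (-3.97), Deup1 (-3.13), Reg3g (-3.09) and Pifo (-2.78). The jaws carry different titled batches, and batch and jaw cannot be told apart in these differences.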

How the results depend on the processing

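Of the 30 genes named for the age change, 535 of 537 values under the alternatives kept their direction and call, as did 361 of 365 for the 16 genes of the proximal comparison and 227 of 227 for the 10 of the maxilla comparison. The highest adjusted p values with limma were 0.0814, 0.0924 and 2.58e-06, and none of these values reversed. The named genes were picked as the largest called differences in the same data, so their stability says little of the other calls. The 3093 calls became 5010 with array weights, whose fit reported that its convergence tolerance was not reached, and 295 with a 2-fold limit. Leaving out single arrays gave 2194 to 2526. In proximal mandible the 3898 calls became 307 with a 2-fold limit. In distal maxilla the 2832 calls became 4571 with array weights and 266 with a 2-fold limit. Of the 310 differences from proximal mandible there were 777 with array weights, 94 with a 2-fold limit and 191 to 312 with single arrays left out, 191 of them without distal mandible E14.5 array 1. The 1057 differences from distal maxilla became 1672 with the arrays compared alone, 1720 with their batches, 2530 with array weights and 358 with a 2-fold limit. The cause of these shifts was not tested, apart from the 2-fold limit, which only removes calls.

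A replicate block as a fixed term gave 4151 calls for distal mandible against 3843 for the same 6 arrays without it, and 1701 differences from distal maxilla. A random replicate block, with a fitted correlation of -0.029, gave 2950. Deviations of the same-numbered E13.5 and E14.5 arrays correlated at -0.022, 0.117 and 0.029, and not every array correlated best with its own number, so the numbers were not taken as pairs. Genes at or below 4.78 on both sides have no reliable difference, and rises from below it are lower bounds.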

Other observations

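Genes in this paragraph were chosen after their values were seen. Several genes for protease inhibitors, serpins and cystatins, rose in distal mandible. Serpinb3a read 6.06, 5.57 and 5.37 at E13.5 and 8.75, 8.60 and 8.40 at E14.5, a 7.56-fold rise. Serpinb5, maspin, rose by 1.91, Serpinb1a by 2.40 and Serpinb7 by 2.19, and none of the arrays of the 2 ages overlapped in Serpinb3a. Serpinb11 was at least 6.05-fold and Csta1, a cystatin, at least 6.84-fold higher, and Stfa3, a stefin, rose by 3.07. Csta1 rose more than in proximal mandible, by 1.55 ± 0.20, and Asprv1, a skin protease, less, by -0.78 ± 0.22 (adjusted p = 0.0472 with limma). Envelope and junction genes outside the list rose too: Ppl, periplakin, by 1.51, Evpl, envoplakin, by 1.37, Cnfn, cornifelin, by 1.38 and Tgm1, a transglutaminase, by 1.34. Among transcription factors of keratinocyte differentiation Grhl1 rose by 2.01, Gata3 by 1.26, Klf5 by 1.09 and Zfp750 by 1.05.

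Other rises were in fat, connective tissue and stress genes, likewise chosen after their values were seen. Fabp4, a fatty acid carrier of fat cells and vessels, read 7.02, 5.90 and 6.40 at E13.5 and 8.87, 8.35 and 8.80 at E14.5, a 4.71-fold rise, while the fat hormone Adipoq stayed dim. Cd36, a fatty acid transporter, rose by 1.22 and Cebpa, a factor of fat and other lineages, by 1.25. Dpt, dermatopontin, rose by 2.12 and Mfap5, a microfibril protein, by 1.36. The heat shock genes Hspa1a and Hspa1b rose by 1.13 and 1.27. Aqp4, a water channel, read 5.35, 5.50 and 5.55 at E13.5 and 4.05, 4.24 and 4.08 at E14.5 and fell by 1.34 in distal mandible, while in distal maxilla it rose by 0.91.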
